A study of Homo sapiens with 10 samples.

Results

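Genes of the hypoxia response and of glycolysis were followed in T47D human breast cancer cells with and without the A isoform of the progesterone receptor (PR-A). The members were 36 named genes, taken as the probe sets of an Affymetrix U133 Plus 2 table that carry 1 gene symbol equal to a listed name. Of these, 30 genes were measured, with 37 probe sets, among the 16376 probe sets of that table. Shares of all probe sets below are shares of this table, which was not compared with the full content of the array. The measured genes were 17 of 20 glycolytic enzymes, 8 of 10 hypoxia targets outside glycolysis, both genes of glycogen metabolism (PGM1 and GBE1), both HIF alpha subunits (HIF1A and EPAS1), and VEGFB. No probe set among those used here stood for PGK2, PFKM, PFKFB2, CA9, VEGFA or VEGFC. A gene with several probe sets was described by that with the highest mean, and the others are given where they differ.

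RNA was measured on 10 arrays, 2 for each of 5 groups: PR-A K388R cells with R5020 or vehicle, WT PR-A cells with R5020 or vehicle, and T47D-Y cells with vehicle. T47D-Y is a PR-negative subline of T47D, and both PR-A lines were made from it by stable transfection of a vector for the WT receptor or for K388R, which cannot be SUMOylated at that lysine, so every group shares the T47D-Y background and the receptor is not driven by its own gene. Cells received the progestin R5020 (10 nM) or ethanol as vehicle for 24 h. No R5020 arrays of T47D-Y cells were used here, and with 1 line per receptor the K388R mutation and the line that carries it cannot be told apart. The sources name the same treatment but different media (DMEM with stripped serum in the labels, MEM with FBS in the methods), and neither mentions low oxygen.

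Cells that lack oxygen keep the transcription factors HIF1A and EPAS1 (HIF-2 alpha) from being degraded, and these bind DNA with the partner ARNT at short elements around the letters ACGTG or GCGTG. Their targets include most enzymes of glycolysis, which turns glucose into lactate without oxygen, and genes for mitochondrial turnover, collagen hydroxylation, vessel growth and pH control. The protein level of HIF1A is set mainly by its breakdown, so its mRNA is no measure of its activity. Many of these genes also answer to hormones, growth factors and nutrients, and NDRG1 is both a hypoxia and an androgen-responsive gene.

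Promoter letters are shown for 4 members with 1 start site in the RefSeq table (GRCh38.p14) on which the results below turn: P4HA2, raised by R5020 in both PR-A lines, BNIP3, raised in WT PR-A cells, ENO2, raised in PR-A K388R cells, and ADM, the member with the widest range between lines. Each line holds the 250 bases before the start site, 5′ to 3′ on the strand of the gene, and capitals mark ACGTG or GCGTG on either strand. A further motif, TGTTCT, a short core of the progesterone response element, was searched in the same way. P4HA2 lies on the minus strand at chr5:132227092-132227341, BNIP3 on the minus strand at chr10:131981924-131982173, ENO2 on the plus strand at chr12:6914330-6914579 and ADM on the plus strand at chr11:10304823-10305072.
P4HA2: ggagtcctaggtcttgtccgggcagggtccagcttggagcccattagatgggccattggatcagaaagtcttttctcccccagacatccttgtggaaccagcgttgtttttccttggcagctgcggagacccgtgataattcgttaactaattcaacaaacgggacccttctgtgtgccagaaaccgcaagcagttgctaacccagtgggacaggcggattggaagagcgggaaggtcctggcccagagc
BNIP3: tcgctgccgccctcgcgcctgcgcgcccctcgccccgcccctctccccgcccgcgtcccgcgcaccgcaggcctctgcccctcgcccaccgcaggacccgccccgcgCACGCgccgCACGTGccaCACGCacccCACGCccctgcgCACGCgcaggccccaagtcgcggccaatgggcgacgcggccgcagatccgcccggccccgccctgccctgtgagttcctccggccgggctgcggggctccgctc
ENO2: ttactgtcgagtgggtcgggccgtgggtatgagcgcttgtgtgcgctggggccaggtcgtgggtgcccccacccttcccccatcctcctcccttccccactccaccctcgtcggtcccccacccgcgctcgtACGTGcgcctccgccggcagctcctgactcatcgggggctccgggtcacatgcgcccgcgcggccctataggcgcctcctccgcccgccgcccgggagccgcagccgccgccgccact
ADM: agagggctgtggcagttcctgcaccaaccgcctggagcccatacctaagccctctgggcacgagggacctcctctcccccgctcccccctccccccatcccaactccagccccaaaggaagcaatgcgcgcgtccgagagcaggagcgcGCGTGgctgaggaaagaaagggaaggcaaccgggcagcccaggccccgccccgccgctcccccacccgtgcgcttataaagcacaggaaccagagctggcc

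BNIP3 held 4 matches to GCGTG and a single CACGTG, which reads as ACGTG on both strands. ENO2 held 1 ACGTG, 118 bases before the start, ADM held 1 GCGTG, 101 bases before it, and P4HA2 held none of the letters searched. Over 29 members with a promoter in the table, 39.2% of 51 windows of this length held ACGTG, against 18.5% of all 35116 windows, 51.0% against 32.2% held GCGTG and 7.84% against 12.4% held TGTTCT. Windows of 1 gene overlap, a match is not a binding site, and these shares are a description.

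The arrays had medians of 4.59 to 4.69 and lower quartiles of 3.28 to 3.39 log2 units. Of 8 luminal epithelial markers measured, KRT18 (13.45 to 14.29), CDH1 (11.74 to 12.35) and EPCAM (11.09 to 11.77) were high on every array and TFF1 was low (4.17 to 5.88). ESR1 had the widest range of the 8 (7.73 to 10.11). Of 3 leukocyte genes measured, PTPRC (2.58 to 2.73) and LYZ (2.86 to 3.24) lay below the lower quartiles and CD14 (4.01 to 4.64) above them. Of 4 endothelial genes, CDH5 (2.96 to 3.21) and KDR (2.90 to 3.31) lay about or below the lower quartiles, and VWF (3.97 to 4.58) and PECAM1 (5.67 to 6.14) above them. Of the 6 fibroblast genes measured LUM stood at 2.34 to 2.62 and COL1A1 at 6.11 to 9.59. The mean of the luminal markers was 10.67 and 10.53 with R5020 and 10.84 and 10.76 with vehicle in PR-A K388R cells. It was 10.12 and 10.20 with R5020 and 10.57 and 10.64 with vehicle in WT PR-A cells, while T47D-Y cells had 11.01 and 11.07. The part of this shift in the results was not tested.

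All arrays were fitted together in limma with 1 mean per group and the replicate number as a block, and a probe set was called when it changed at least 1.5-fold with a p under 0.05 after Benjamini-Hochberg adjustment over all probe sets. Nothing in the labels says whether replicates 1 and 2 were separate cultures. The p-values therefore cover the spread of these samples alone, which may be technical. Among the 5 groups, 18 of 30 members varied (adjusted p under 0.05 in the F-test and 1.5-fold between the highest and the lowest group mean), against 19.5% of all probe sets and 30.3% once the dimmest 40% were left out. The share was 9 of 17 glycolytic enzymes and 5 of 8 hypoxia targets outside glycolysis. Here and below, each member stands by its brightest probe set and was chosen with earlier results known. The shares of all probe sets have neither property, so a gap to them is a description. The widest ranges between group means were those of ADM (4.04 log2 units), NDRG1 (3.05) and PFKFB3 (2.89), and the narrowest that of the glycolytic enzyme TPI1 (0.12).

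**Figure D1:**
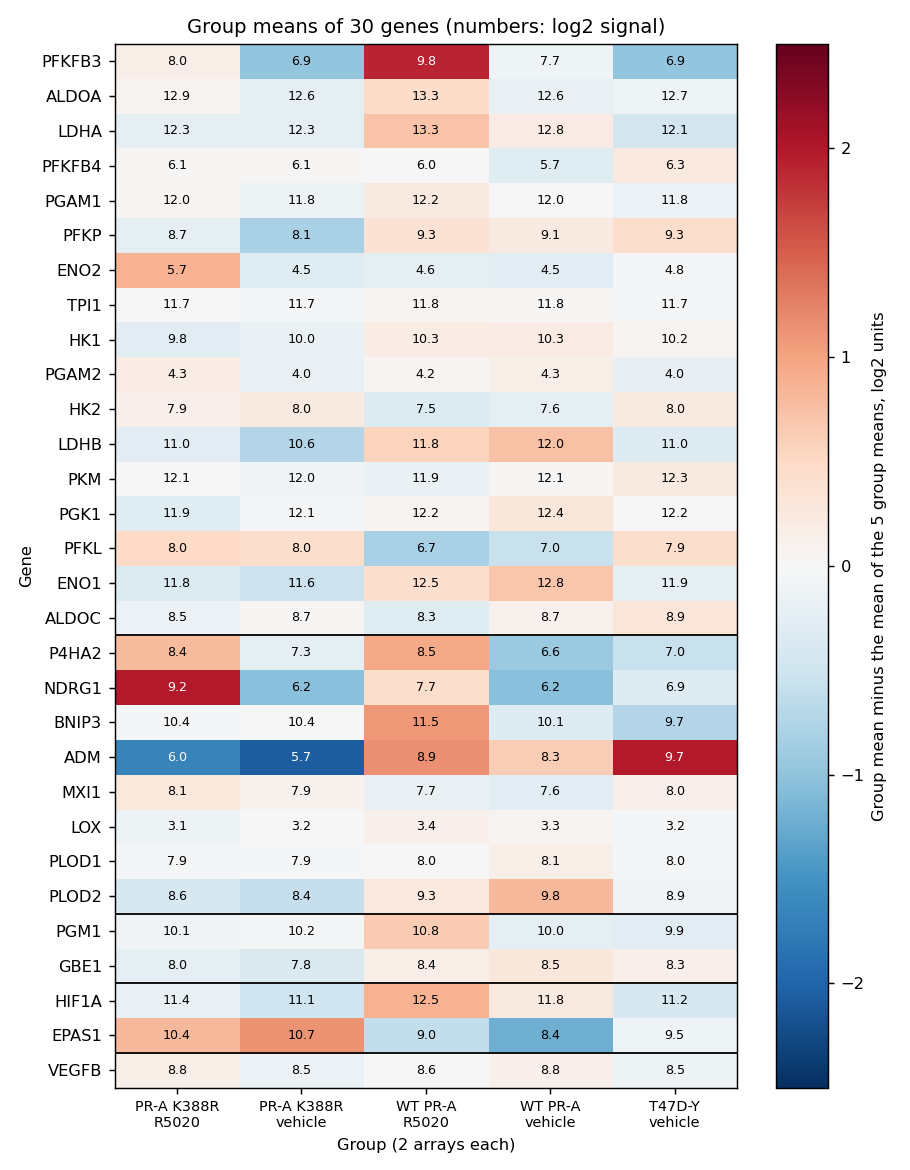
Group means of the 30 measured genes, with genes down the page by list (glycolytic enzymes, hypoxia targets outside glycolysis, glycogen, HIF alpha subunits, VEGFB) and the 5 groups across; numbers are log2 signals and colour is the distance from the mean of the gene's 5 group means. ADM is lowest in both groups of PR-A K388R cells, EPAS1 is highest there, and NDRG1, P4HA2 and PFKFB3 are higher in both R5020 groups than in their vehicle groups.

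The first question was what the progestin does to these genes in each PR-A line. R5020 raised 3 of 30 members in PR-A K388R cells (1.01% of all probe sets were raised, 1.65% without the dimmest 40%) and 7 of 30 in WT PR-A cells (3.63% and 5.7%). It lowered 0 members in the PR-A K388R line (0.391% and 0.651%) and also 0 in the WT PR-A line (2.77% and 4.4%) in limma. In either direction 10 and 13 members had an unadjusted p under 0.05, against 1782 and 3044 of all 16376 probe sets. The calls were of NDRG1 and P4HA2 in both lines, of ENO2 in PR-A K388R cells, and of BNIP3, PFKFB3, PGM1, ALDOA and HIF1A in WT PR-A cells. A call in a single line does not show that the lines differ, which is tested below. The study names NDRG1 from these samples, as a gene enhanced in the K388R mutant cells alone. In the fit used here NDRG1 was also called in WT PR-A cells (2.79-fold, adjusted p = 0.00303 from limma). The study used a different test, an ANOVA in Partek. With unmoderated contrasts the NDRG1 call was lost in WT PR-A cells (adjusted p = 0.128) and in PR-A K388R cells (0.164). The response of NDRG1 in these same samples is not independent evidence.

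NDRG1, a stress-response gene linked to differentiation, was at 9.51 and 8.94 on the R5020 arrays of PR-A K388R cells, against 6.28 and 6.08 on their vehicle arrays. In WT PR-A cells it was at 7.69 and 7.62 with R5020, against 6.07 and 6.28 with vehicle. T47D-Y cells, with 6.58 and 7.22, lay above both PR-A lines with vehicle and below every R5020 array. NDRG1 rose by 3.04 log2 units in PR-A K388R cells, or 8.23-fold (95% interval 2.52 to 3.56, adjusted p = 0.000415), and by 1.48 in WT PR-A cells, or 2.79-fold (0.96 to 2.00, adjusted p = 0.00303).

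P4HA2 encodes the catalytic subunit of a prolyl hydroxylase that collagen needs to fold. It stood at 8.52 and 8.20 with R5020, against 7.36 and 7.29 with vehicle in PR-A K388R cells. In WT PR-A cells it was at 8.56 and 8.49 with R5020, against 6.48 and 6.79 with vehicle, and in T47D-Y cells at 6.94 and 7.10. The R5020 arrays of both lines thus overlapped, and the vehicle arrays did not. The rise was 2.04-fold in PR-A K388R cells (log2 1.03, 95% interval 0.69 to 1.37, adjusted p = 0.0107) and 3.71-fold in WT PR-A cells (log2 1.89, 1.56 to 2.23, adjusted p = 6.47e-05). A further probe set rose too, by 1.06 and 1.37 log2 units, while the last one, at 2.93 to 3.48 and so about the lower quartiles, changed by 0.16 and 0.08. In PR-A K388R cells the call was lost without vehicle replicate 1 (adjusted p = 0.0769), vehicle replicate 2 (0.0963) or R5020 replicate 1 (0.116), with rises of 0.83 to 1.08.

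BNIP3, a mitochondrial protein that marks the organelle for removal, was at 10.32 and 10.40 with R5020 and 10.41 and 10.37 with vehicle in PR-A K388R cells. In WT PR-A cells it reached 11.67 and 11.30 with R5020, against 10.06 and 10.10 with vehicle. The PR-A K388R arrays overlapped between treatments, and the WT PR-A R5020 arrays stood above all others, those of T47D-Y (9.52 and 9.81) included. The change was -0.03 in PR-A K388R cells (95% interval -0.37 to 0.30) and the rise was 1.40 in WT PR-A cells (2.65-fold, 95% interval 1.07 to 1.74, adjusted p = 0.000327), and the other probe set gave 0.02 and 1.58.

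Among the glycolytic enzymes, PFKFB3, which makes the activator of phosphofructokinase and so speeds glycolysis, had the largest rise in WT PR-A cells. It was at 7.62 and 8.40 with R5020, against 6.77 and 6.97 with vehicle in PR-A K388R cells, and at 10.11 and 9.42 with R5020, against 7.77 and 7.71 with vehicle in WT PR-A cells. T47D-Y cells had 6.99 and 6.75. R5020 and vehicle arrays did not overlap within either line, and the rise of 4.07-fold in WT PR-A cells passed the test (2.02 log2 units, 95% interval 1.42 to 2.63, adjusted p = 0.00121). In PR-A K388R cells the change of 1.14 (0.54 to 1.74) did not, with an adjusted p of 0.0900.

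ENO2, the neuronal form of enolase, was at 5.63 and 5.71 with R5020, against 4.38 and 4.61 with vehicle in PR-A K388R cells. It was at 4.75 and 4.39 with R5020 and 4.39 and 4.66 with vehicle in WT PR-A cells, and at 4.86 and 4.63 in T47D-Y cells. Only the R5020 arrays of PR-A K388R cells stood out, and the others lay about the array medians. ENO2 rose by 1.17 in PR-A K388R cells (2.25-fold, adjusted p = 0.00944), and its change was 0.05 in WT PR-A cells (-0.32 to 0.42). The call was lost without PR-A K388R vehicle replicate 1 (adjusted p = 0.0977), R5020 replicate 1 (0.0785) or R5020 replicate 2 (0.0906), with changes of 1.03 to 1.22.

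ALDOA, the muscle-type aldolase, was at 12.93 and 12.88 with R5020 and 12.50 and 12.66 with vehicle in PR-A K388R cells, and at 13.38 and 13.18 with R5020 and 12.62 and 12.67 with vehicle in WT PR-A cells. T47D-Y cells had 12.70 and 12.74. In WT PR-A cells its rise was 1.55-fold (0.63 log2 units, adjusted p = 0.00846), just over the fold threshold, and its change was 0.33 in PR-A K388R cells (0.06 to 0.59, adjusted p = 0.318). LDHA, the lactate-forming subunit of lactate dehydrogenase, lay just under that threshold in WT PR-A cells. It was at 13.27 and 13.27 with R5020, against 12.75 and 12.78 with vehicle (1.42-fold, log2 0.51, adjusted p = 0.0142). In PR-A K388R cells LDHA was at 12.29 and 12.34 with R5020 and 12.35 and 12.26 with vehicle, a change of 0.01 (-0.23 to 0.24). The ALDOA call was lost without WT PR-A vehicle replicate 1 (0.60, adjusted p = 0.0894), vehicle replicate 2 (0.67, 0.0559) or R5020 replicate 1 (0.51, 0.0940).

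None of the other enzymes of the pathway was called. In PR-A K388R cells their changes ran between -0.25 for PGK1 and 0.60 for PFKP, and in WT PR-A cells between -0.41 for ALDOC and 0.30 for PFKFB4. TPI1, which interconverts the triose phosphates, changed by 0.06 (-0.18 to 0.30) in PR-A K388R cells and by 0.04 (-0.20 to 0.28) in WT PR-A cells. HK1 and HK2, the hexokinases that trap glucose in the cell, gave -0.12 and -0.11 in PR-A K388R cells, with -0.03 and -0.12 in WT PR-A cells. PKM, pyruvate kinase, gave 0.06 and -0.19.

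PGM1, which links glucose-1-phosphate from glycogen to glycolysis, was at 10.08 and 10.15 with R5020 and 10.17 and 10.17 with vehicle in PR-A K388R cells. It was at 10.93 and 10.74 with R5020, against 9.99 and 9.93 with vehicle in WT PR-A cells, where its rise was 1.83-fold (0.87 log2 units, 95% interval 0.61 to 1.14, adjusted p = 0.00134). As for BNIP3, both WT PR-A R5020 arrays were above all 8 others, those of T47D-Y (9.85 and 10.02) included. GBE1, the glycogen branching enzyme, changed by 0.15 (-0.09 to 0.40) in PR-A K388R cells and by -0.10 (-0.35 to 0.14) in WT PR-A cells.

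HIF1A mRNA was at 11.48 and 11.38 with R5020 and 11.05 and 11.18 with vehicle in PR-A K388R cells, and at 12.41 and 12.58 with R5020 and 11.81 and 11.87 with vehicle in WT PR-A cells. Its rise in WT PR-A cells was 1.57-fold (0.65 log2 units, adjusted p = 0.0124), and its change in PR-A K388R cells was 0.31 (0.02 to 0.61, adjusted p = 0.426). The call in WT PR-A cells was lost without vehicle replicate 1 (0.62, adjusted p = 0.114), vehicle replicate 2 (0.69, 0.0719) or R5020 replicate 2 (0.54, 0.106), and with quantile normalization the change of 0.54 fell under 1.5-fold. EPAS1 changed by -0.30 in PR-A K388R cells (-0.81 to 0.20) and by 0.60 in WT PR-A cells (0.10 to 1.10, adjusted p = 0.169), and its dimmer probe set by -0.01 and 0.02.

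The representative probe sets of the remaining hypoxia targets were not called in either line. ADM, the vasodilator peptide adrenomedullin, changed by 0.39 (-0.19 to 0.97) in PR-A K388R cells and by 0.54 (-0.04 to 1.12) in WT PR-A cells. PLOD1, a lysyl hydroxylase of collagen, MXI1, an antagonist of MYC, and LOX, which cross-links collagen, changed by at most 0.17 in size in either line, and LOX lay near the lower quartiles at 3.10 to 3.43. PLOD2, a further lysyl hydroxylase, changed by 0.16 in PR-A K388R cells and by -0.56 in WT PR-A cells (adjusted p = 0.0237, under 1.5-fold), and its dimmer probe set fell by 0.69 in WT PR-A cells (1.61-fold, adjusted p = 0.00616).

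**Figure D2:**
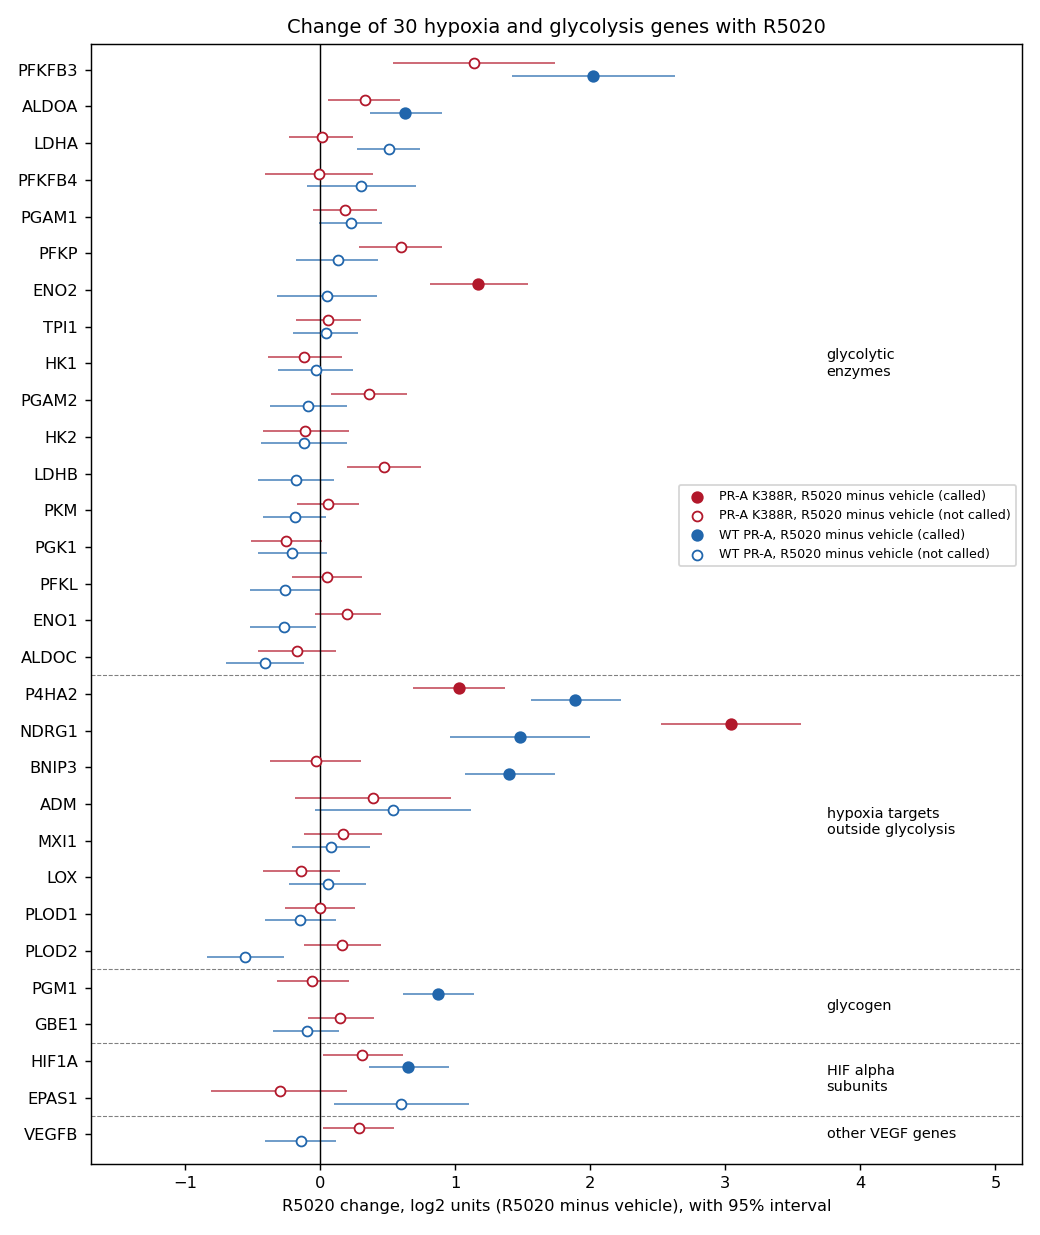
R5020 change of each measured member in log2 units (R5020 minus vehicle, 2 arrays each) in PR-A K388R cells (red) and WT PR-A cells (blue); bars are 95% intervals from limma and filled points were called. Most glycolytic enzymes changed by less than 1.5-fold in both lines, and NDRG1 is farther right in PR-A K388R cells. BNIP3 and PGM1 lie near 0 in PR-A K388R cells and at 1.40 and 0.87 in WT PR-A cells.

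Set against each other, the glycolytic enzymes and the hypoxia targets outside glycolysis gave these counts. In PR-A K388R cells 1 of 17 enzymes and 2 of 8 targets rose, where 1.01% of all probe sets did (1.65% without the dimmest 40%), with median changes of 0.06 and 0.17 log2 units, against 0.00 over all probe sets. In WT PR-A cells 2 of 17 and 3 of 8 rose, where 3.63% of all probe sets did (5.7% without the dimmest 40%), with medians of -0.03 and 0.31, against -0.01. Without regard to sign, the median changes of enzymes and targets were 0.18 and 0.17 in PR-A K388R cells, against 0.11 over all probe sets. They were 0.21 and 0.55 in WT PR-A cells, against 0.13. The median level of the 8 targets was 8.32 and 8.14 with R5020, against 7.64 and 7.55 with vehicle in PR-A K388R cells, and 8.28 and 8.23 with R5020, against 7.79 and 7.91 with vehicle in WT PR-A cells. That of the 17 enzymes was 9.85 and 9.84 with R5020 and 9.84 and 10.08 with vehicle in PR-A K388R cells, and 10.40 and 10.22 with R5020 and 10.36 and 10.32 with vehicle in WT PR-A cells. T47D-Y cells had 7.91 and 8.03 for the targets and 10.20 and 10.20 for the enzymes. On every array the enzyme median was the value of HK1, the gene in the middle, so it does not show the enzymes that rose or fell. The target medians rest on few genes. Among the 8 targets NDRG1 and P4HA2 moved up in rank with R5020 in PR-A K388R cells. The median level of the 8 there thus rose by more than their median change of 0.17. Without 1 array of the compared groups the median changes of the targets ran between 0.04 and 0.29 in PR-A K388R cells. In WT PR-A cells they ran between 0.25 and 0.50.

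Other genes of the pathway, from a list of 44 of which 18 were measured, counted 1 raised gene in PR-A K388R cells and 5 in WT PR-A cells. Of all probe sets 1.01% and 3.63% were raised, and 1.65% and 5.7% without the dimmest 40%. The medians of the 18 genes were 0.12 in both lines, against 0.00 and -0.01 over all probe sets. AK4, a mitochondrial adenylate kinase, was raised in both: it was at 10.46 and 10.37 with R5020, against 9.62 and 9.36 with vehicle in PR-A K388R cells (a rise of 0.93, adjusted p = 0.0103), and at 10.93 and 11.14 with R5020, against 9.11 and 9.10 with vehicle in WT PR-A cells (1.93, adjusted p = 3.29e-05). SLC2A1, the glucose carrier GLUT1, was at 7.95 and 7.63 with R5020 and 7.69 and 7.56 with vehicle in PR-A K388R cells, and at 8.14 and 8.14 with R5020, against 6.59 and 6.79 with vehicle in WT PR-A cells. It rose by 1.45 in WT PR-A cells (adjusted p = 0.000278), where its vehicle arrays lay below every other array of the PR-A lines. DDIT4, an inhibitor of mTORC1, rose by 1.94, STC2, a secreted glycoprotein, by 1.15 and CA12, a carbonic anhydrase, by 1.03 in WT PR-A cells (adjusted p = 0.00283, 0.000958 and 0.00362 from limma). In PR-A K388R cells DDIT4 changed by 1.19 (0.52 to 1.86), STC2 by 0.31 and CA12 by 0.34, none of them called (adjusted p = 0.116, 0.488 and 0.514). The AK4 call in PR-A K388R cells was lost without vehicle replicate 2 (adjusted p = 0.0952), R5020 replicate 1 (0.115) or R5020 replicate 2 (0.0609), and that of CA12 without WT PR-A vehicle replicate 2 (0.0529).

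**Figure D3:**
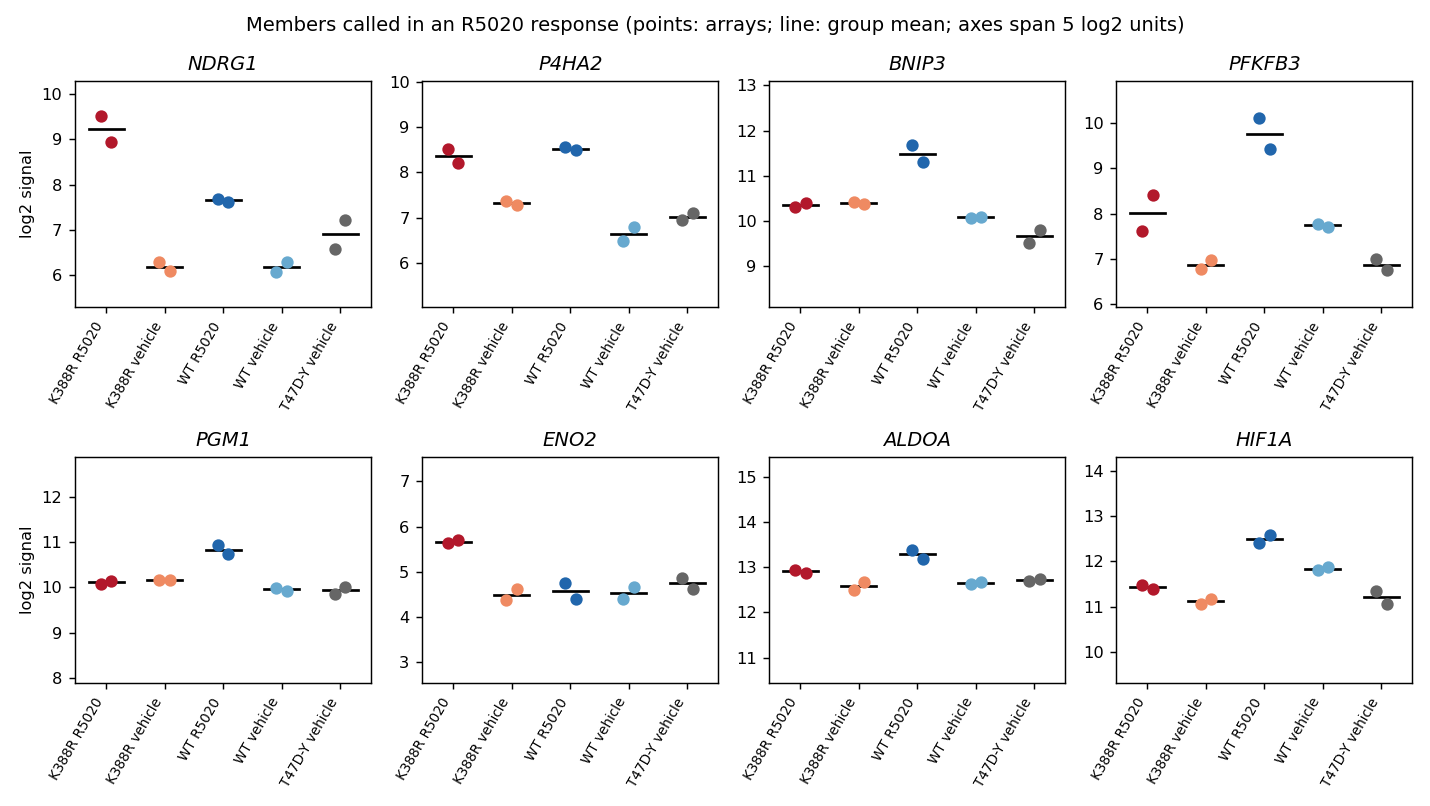
Log2 signal on every array (points, 2 per group) and group means (lines) for the 8 members called in an R5020 response; each vertical axis spans 5 log2 units and does not start at 0. NDRG1 is highest in R5020-treated PR-A K388R cells (9.51 and 8.94), PFKFB3, BNIP3 and PGM1 in R5020-treated WT PR-A cells, and P4HA2 reaches about the same level with R5020 in both PR-A lines.

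The next question was whether the receptor that cannot be SUMOylated responds differently. The difference of the responses, PR-A K388R minus WT PR-A, was called for 2 of 30 members, both lower (0.953% of all probe sets were called lower, 1.7% without the dimmest 40%) and 0 higher (0.519% and 1.04%). An unadjusted p under 0.05 was found for 14 members, against 1966 of all 16376 probe sets. BNIP3 had a difference of -1.44 (95% interval -1.91 to -0.96, adjusted p = 0.0136 from limma), and -1.55 by its other probe set. PGM1 had a difference of -0.93 (-1.31 to -0.56, adjusted p = 0.0303). Both rose in WT PR-A cells and were not called in PR-A K388R cells.

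NDRG1 and ENO2 had larger changes in PR-A K388R cells, by 1.56 (0.83 to 2.29, adjusted p = 0.0516) and 1.12 (0.60 to 1.64, adjusted p = 0.0502), and both just missed the threshold. P4HA2 had a difference of -0.86 (-1.34 to -0.39, adjusted p = 0.0922), PFKFB3 of -0.88 (-1.73 to -0.03, adjusted p = 0.390) and LDHA of -0.50 (-0.83 to -0.17, adjusted p = 0.171). For ALDOA it was -0.31 (-0.68 to 0.07, adjusted p = 0.55) and for HIF1A -0.34 (-0.76 to 0.08, adjusted p = 0.548). PLOD2 had a difference of 0.72 (adjusted p = 0.0977), and its dimmer probe set one of 0.98 that passed (adjusted p = 0.0277). For TPI1 the interval of the difference was -0.32 to 0.36, for PGK1 -0.40 to 0.32, for PGAM1 -0.38 to 0.29 and for HK1 -0.48 to 0.30, and none of these intervals reaches 1.5-fold. Of the other pathway genes, SLC2A1 (-1.28, adjusted p = 0.0212) and AK4 (-1.0, adjusted p = 0.0365) had smaller responses in PR-A K388R cells. The differences of DDIT4 (-0.76, adjusted p = 0.562), STC2 (-0.84, 0.095) and CA12 (-0.69, 0.243) were not called.

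The call of BNIP3 was lost without WT PR-A vehicle replicate 1 (adjusted p = 0.0708) or 2 (0.0593), PR-A K388R vehicle replicate 1 (0.0574) or PR-A K388R R5020 replicate 1 (0.0669), with differences of -1.38 to -1.46, and that of PGM1 without any 1 of the 8 arrays but WT PR-A R5020 replicate 2 (0.0865 to 0.124, with -0.82 to -0.98). SLC2A1 was lost without any 1 of the 8 arrays but PR-A K388R R5020 replicate 1 (0.0544 to 0.107), and AK4 without WT PR-A vehicle replicate 1 or 2, WT PR-A R5020 replicate 2, PR-A K388R vehicle replicate 1, PR-A K388R R5020 replicate 1 or 2 or either T47D-Y array (0.0543 to 0.135), and with the compared groups alone (0.0543). Without the replicate number as a block 7 members were called (3.21% of all probe sets), with ENO2, LDHB, NDRG1, P4HA2 and PLOD2 added.

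Without ligand, the lines also differed in several of these genes. Between the vehicle-treated PR-A lines 10 of 30 members were called, 3 higher (2.71% of all probe sets, 4.43% without the dimmest 40%) and 7 lower (4.72% and 7.38%) in PR-A K388R than in WT PR-A cells. Against T47D-Y, 2 were higher (1.06% and 1.74%) and 2 lower (2.3% and 3.63%) in PR-A K388R cells, and 5 were higher (3.72% and 5.66%) and 3 lower (3.55% and 5.42%) in WT PR-A cells. Both comparisons with T47D-Y share its 2 arrays.

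The HIF alpha subunits went opposite ways between the vehicle-treated PR-A lines. EPAS1 was at 10.43 and 11 in PR-A K388R cells, 8.58 and 8.19 in WT PR-A cells, with 9.37 and 9.58 in T47D-Y cells, and these 3 groups did not overlap. With R5020 it was at 10.36 and 10.47 in PR-A K388R cells, against 9.23 and 8.74 in WT PR-A cells. It was 5.04-fold higher in PR-A K388R than in WT PR-A cells (2.33 log2 units, 95% interval 1.83 to 2.84, adjusted p = 0.000188), with 1.24 (adjusted p = 0.0151) and -1.09 (adjusted p = 0.0132) against T47D-Y, and its dimmer probe set gave 1.32, 0.91 and -0.40, the last not called. HIF1A differed by -0.72 log2 units between PR-A K388R and WT PR-A cells (adjusted p = 0.00680), and against T47D-Y (11.34 and 11.07) its differences were -0.09 and 0.63, the second called (adjusted p = 0.0141).

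ADM was the member that differed most. It was at 5.66 and 5.64 in PR-A K388R cells, 8.53 and 8.11 in WT PR-A cells, with 9.78 and 9.60 in T47D-Y cells. Both PR-A lines lay below T47D-Y, PR-A K388R cells 16.4-fold (-4.04 log2 units, 95% interval -4.62 to -3.46, adjusted p = 3.49e-05) and WT PR-A cells 2.59-fold (-1.37, adjusted p = 0.00858), and PR-A K388R cells lay 6.35-fold below WT PR-A cells. With R5020 it was at 5.60 and 6.49 in PR-A K388R cells and at 9.0 and 8.72 in WT PR-A cells, so PR-A K388R cells again lay below WT PR-A cells.

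PLOD2 was at 8.53 and 8.37 in PR-A K388R cells, 9.88 and 9.80 in WT PR-A cells, with 9.01 and 8.90 in T47D-Y cells. With R5020 it was at 8.50 and 8.73 in PR-A K388R cells, against 9.22 and 9.34 in WT PR-A cells. WT PR-A cells were above both others, by 0.88 against T47D-Y (adjusted p = 0.00185), and PR-A K388R cells were 2.61-fold below WT PR-A cells (log2 -1.38, adjusted p = 0.000146). Its dimmer probe set was also lower in PR-A K388R than in T47D-Y cells (-0.67, adjusted p = 0.0156), where the brighter gave -0.50 (adjusted p = 0.0585). P4HA2 was higher in PR-A K388R than in WT PR-A cells by 0.69 (adjusted p = 0.0163), with 0.31 and -0.38 against T47D-Y. BNIP3 was higher in PR-A K388R than in T47D-Y cells by 0.73 (adjusted p = 0.0257), which its other probe set did not pass (0.50, adjusted p = 0.124), nor did the fit of the compared groups alone (0.73, adjusted p = 0.0540).

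Of the glycolytic enzymes, 4 of 17 differed between the vehicle-treated PR-A lines. In PR-A K388R cells 1 was higher (2.71% of all probe sets, 4.43% without the dimmest 40%) and 3 were lower (4.72% and 7.38%). LDHB, the subunit of lactate dehydrogenase that favours pyruvate, was at 10.48 and 10.62 in PR-A K388R cells, 12.09 and 11.94 in WT PR-A cells, with 10.93 and 10.99 in T47D-Y cells. ENO1, the common enolase, was at 11.53 and 11.59 in PR-A K388R cells, 12.86 and 12.74 in WT PR-A cells, with 11.86 and 11.87 in T47D-Y cells. Both were higher in WT PR-A cells than in either other line, LDHB by 1.05 and ENO1 by 0.94 against T47D-Y (adjusted p = 0.000566 and 0.000543), and their differences between PR-A K388R and WT PR-A cells were -1.47 and -1.24. With R5020 the PR-A lines did not overlap either: LDHB was at 10.96 and 11.09 in PR-A K388R cells, against 11.93 and 11.75 in WT PR-A cells, and ENO1 at 11.72 and 11.81, against 12.54 and 12.51. LDHA, at 12.75 and 12.78 in WT PR-A cells, was also above T47D-Y cells (12.08 and 12.09), by 0.68 (adjusted p = 0.00284).

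The phosphofructokinases, which catalyse the committed step, went different ways. PFKL, the liver form, was at 7.96 and 7.93 in PR-A K388R cells, 6.87 and 7.05 in WT PR-A cells, with 7.93 and 7.96 in T47D-Y cells, so that WT PR-A cells stood apart (-0.98 against T47D-Y, adjusted p = 0.000586). PFKP, the platelet form, was at 8.23 and 7.95 in PR-A K388R cells, 9.14 and 9.14 in WT PR-A cells, with 9.36 and 9.32 in T47D-Y cells, and here PR-A K388R cells stood apart (-1.24 against T47D-Y, adjusted p = 0.00102). With R5020, PFKL was at 8.07 and 7.93 in PR-A K388R cells, against 6.72 and 6.67 in WT PR-A cells, and PFKP at 8.55 and 8.83, against 9.25 and 9.29. GBE1 was at 7.81 and 7.83 in PR-A K388R cells, 8.52 and 8.41 in WT PR-A cells, with 8.28 and 8.35 in T47D-Y cells, and these groups did not overlap. Its difference of -0.65 between PR-A K388R and WT PR-A cells (adjusted p = 0.00497) was -0.53 with quantile normalization, under 1.5-fold. With R5020 it was at 7.92 and 8.03 in PR-A K388R cells, against 8.40 and 8.31 in WT PR-A cells.

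Several of the smaller vehicle differences depend on single arrays. Against T47D-Y, the calls of BNIP3 (0.55 to 0.76) and EPAS1 (0.89 to 1.37) in PR-A K388R cells were lost without T47D-Y replicate 1 or PR-A K388R vehicle replicate 2, that of BNIP3 also without PR-A K388R vehicle replicate 1 and that of EPAS1 also without T47D-Y replicate 2. In WT PR-A cells ADM (-1.11 and -1.26) was lost without WT PR-A vehicle replicate 2 or T47D-Y replicate 1, EPAS1 (-0.85 to -1.23) without WT PR-A vehicle replicate 2 or either T47D-Y array, and HIF1A (0.46 to 0.67) without either WT PR-A vehicle array or T47D-Y replicate 2. Between the PR-A lines P4HA2 (0.50 to 0.74) was lost without WT PR-A vehicle replicate 1 or either PR-A K388R vehicle array, HIF1A (-0.64 to -0.76) without either WT PR-A vehicle array or PR-A K388R vehicle replicate 1, and GBE1 (-0.58) without WT PR-A vehicle replicate 1, while the calls of ADM, ENO1, EPAS1, LDHB, PFKL, PFKP and PLOD2 between the PR-A lines were kept without any 1 array.

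Of the 18 other pathway genes, 3 were called between the PR-A lines, where 7.43% of all probe sets were. SLC2A1 (0.94, adjusted p = 0.00344) and BHLHE40, a transcriptional repressor (0.65, adjusted p = 0.00937), were higher in PR-A K388R cells, and ENO3, the muscle enolase, was lower (-0.70, adjusted p = 0.0284). Against T47D-Y, PR-A K388R cells had higher CA12 (1.10, adjusted p = 0.00647), SLC2A1 (0.69, adjusted p = 0.0320) and ADORA2B, an adenosine receptor (1.53, adjusted p = 0.0365), and WT PR-A cells had higher CA12 (1.16, adjusted p = 0.00178). Of these calls that of CA12 in WT PR-A cells was kept without any 1 array. Between the PR-A lines SLC2A1 (0.82) was lost without WT PR-A vehicle replicate 1, BHLHE40 (0.54 and 0.59) without replicate 2 of either vehicle group and by its probe set of largest variance (0.28), and ENO3 (-0.45 and -0.51) without replicate 1 of either vehicle group, with quantile normalization (-0.62) and with the compared groups alone. Against T47D-Y, CA12 in PR-A K388R cells (0.97) was lost without T47D-Y replicate 2, SLC2A1 (0.53 to 0.85) without any 1 of the 4 arrays compared, and ADORA2B (1.02 to 1.91) without either T47D-Y array, PR-A K388R vehicle replicate 1 or either WT PR-A vehicle array, and SLC2A1 and ADORA2B also with the compared groups alone (adjusted p = 0.0699 and 0.0749).

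**Figure D4:**
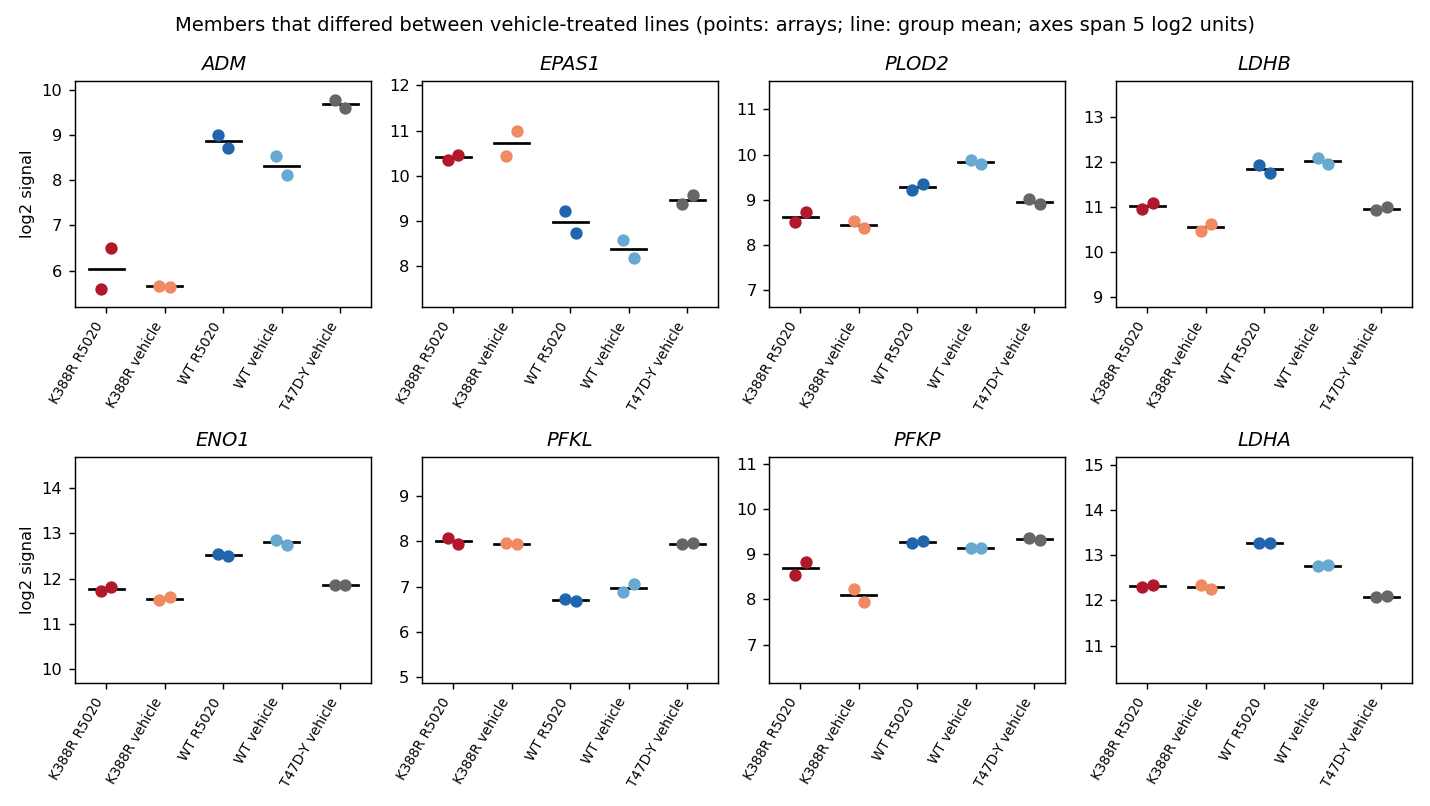
Log2 signal on every array (points, 2 per group) and group means (lines) for 8 members called in a vehicle comparison between lines; each vertical axis spans 5 log2 units and does not start at 0. ADM is lowest in PR-A K388R cells with or without R5020, EPAS1 is highest there, LDHB, ENO1 and PLOD2 are highest in WT PR-A cells, and PFKL is lowest in WT PR-A cells.

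In all, 17 of 30 members were called in at least 1 of the 6 comparisons between groups, against 15.2% of all probe sets and 23.5% without the dimmest 40%. Members stood by their brightest probe sets and were chosen with earlier results known, so this gap too is a description. The 13 called in none were ALDOC, HK1, HK2, PFKFB4, PGAM1, PGAM2, PGK1, PKM, TPI1, LOX, MXI1, PLOD1 and VEGFB, of which 9 are glycolytic enzymes. PGK1, which yields the first ATP of glycolysis, had a bright probe set at 11.87 to 12.55 and 2 dimmer ones, none of which was called in these comparisons. ALDOC was among the members that varied over the 5 groups, and PGAM2, the muscle form of phosphoglycerate mutase, was dim throughout at 3.85 to 4.38.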

How the data were processed

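RNA from 10 samples was hybridised to Affymetrix U133 Plus 2 arrays. The deposited table holds log2 signals, normalized by the authors with Partek Genomics Suite, and the summarization and background correction are not given in the sources used here. For each probe set the replicate 2 minus replicate 1 differences of the 5 groups added up to 0 (at most 0.0003 in size, against a median of 0.228 to 0.255 when the numbers of 1 group were exchanged), so the replicate number had been removed. It was therefore kept as a block in limma 3.58.1 (R 4.3.3), with 4 residual and 5.62 prior degrees of freedom. This removal makes a check of whether equal numbers deviate together void (r of -0.511 to -0.013 between pairs of groups). Of 16376 probe sets, 12547 have 1 gene symbol, 457 several and 3372 none listed.

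Members, gene lists and tests were chosen with earlier results of these data known. By rule, members called in a comparison between groups are given with their values on every array, and other pathway genes are named where called in one. The number of arrays limits the precision. Alternatives were no block, unmoderated contrasts, an intensity trend, quantile normalization, median centring, removal of the dimmest 40%, a 2-fold threshold, the compared groups alone, the probe set of largest variance, and the omission of each array, where the spread of a lone array's group was taken from the rest. Promoters came from RefSeq (GRCh38.p14), and figures were drawn with Python 3.11.15.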

Additional observations from a re-analysis of the deposited data

Results flagged for a closer look

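By the test of the difference of the R5020 responses itself (PR-A K388R minus WT PR-A), 4 of the 37 probe sets of the members were called. The call needed a limma adjusted p under 0.05 and at least 1.5-fold, which 1.47% of all probe sets passed. BNIP3 had -1.44 and -1.55 by its 2 probe sets. PGM1 had -0.93, and the dimmer probe set of PLOD2 had 0.98.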

How the results depend on the processing

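No called change of a member turned its direction under any alternative. Without the replicate block the difference of the responses was called for 7 members (3.21% of all probe sets), against 2 with it (1.47%). The block moved no other count of called members by over 1.5 times. With unmoderated contrasts the counts were 0 and 3 for the R5020 responses of PR-A K388R and WT PR-A cells, 0 for their difference, 0 and 4 against T47D-Y for PR-A K388R and WT PR-A cells, and 6 between the PR-A lines. An intensity trend gave 5 for the response of PR-A K388R cells and 7 for the difference, and centring the arrays gave 4 for the difference. At 2-fold the counts were 4 for the response of WT PR-A cells, 1 for the difference, 3 for WT PR-A cells against T47D-Y and 6 between the PR-A lines. Shares of all probe sets under these other settings are not given here. These counts, and those without 1 array, are therefore a description. Without the dimmest probe sets the median change of the hypoxia targets in WT PR-A cells was 0.54.

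Leaving out 1 array gave 1 to 4 called members for the response of PR-A K388R cells, 0 to 3 for the difference, and against T47D-Y 2 to 4 for PR-A K388R cells, with 5 to 10 for WT PR-A cells. The median change of the hypoxia targets ran between 0.04 and 0.29 in PR-A K388R cells and between 0.25 and 0.50 in WT PR-A cells, and that of the glycolytic enzymes in WT PR-A cells between -0.15 and 0.04. Of 34 calls of members 20 were kept without any 1 array and 14 were lost without some array. The dimmest members were ENO2 (4.38 to 5.71), PGAM2 (3.85 to 4.38) and LOX (3.10 to 3.43), against array medians of 4.59 to 4.69. For the variation among all 5 groups, the compared groups alone are all groups, so that alternative gave no value.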
